A study of Mus musculus with 12 samples.

Results

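The genes described here are 9 components of the circadian clock (Arntl, Clock, Per1, Per2, Per3, Cry1, Nr1d1, Nr1d2 and Dbp) together with Rora, a clock-linked nuclear receptor. They were chosen by gene name, 10 of the 20614 genes in the expression table, and all 10 passed the filter on low values in every comparison. RNA was sequenced from astrocytes of male mice aged 12 to 14 months, taken with anti-ACSA-2 magnetic beads from dissected striatum, thalamus and substantia nigra, after beads had removed myelin, endothelial cells and CD11b+ microglia. Cd38+/+ (n = 3), Cd38+/- (n = 3) and Cd38-/- (n = 6) mice were compared, no treatment is named for any of them, and all were bred from C57BL/6J. The mutant allele, Cd38tm1Lnd, is disrupted in every cell of the animal and not in astrocytes alone, and mice were kept on a reverse light/dark cycle. The time of day at which tissue was taken is not given in the sources used here, so a difference between genotypes in clock phase or sampling time cannot be told apart from a difference in level.

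In the mammalian clock, CLOCK and BMAL1 (the product of Arntl) pair on E-box sequences and drive the Per and Cry genes, whose proteins return to block that pair. The same pair drives Nr1d1 and Nr1d2, which encode the REV-ERB receptors, and these repress Arntl from elements where the ROR receptors, including RORα from Rora, activate it. Dbp is an output gene of the E-box arm and encodes a factor that acts on D-box sequences. In most tissues the messages of Arntl and of the E-box genes therefore peak at opposite times of day, and Nr1d1, Per3 and Dbp are among those with the widest daily swing. CD38 consumes NAD, and NAD-dependent sirtuins act on the clock proteins, which is the question behind setting these genes against Cd38 genotype.

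Promoter sequences of these genes carry the letters through which the loop is wired, and the stretches with a match are shown for that reason. RefSeq promoter windows, 250 bases before to 50 after an annotated start, were found for 9 of the 10 genes. Each was searched on both strands for the E-box CACGTG, its variant CACGTT, the receptor core AGGTCA and the D-box TTATGTAA. Among 32851 promoters of the same length, 7.15% held CACGTG, 4.68% CACGTT, 16.3% AGGTCA and 0.938% TTATGTAA. The stretches lie in GRCm38.p6 at chr11:69098759-69098828 (+, Per1), chr10:85185090-85185154 (-, Cry1), chr11:98775388-98775437 (-, Nr1d1), chr4:151044806-151044880 (-, Per3), chr14:18239157-18239211 (-, Nr1d2) and chr7:113207531-113207558 (+, Arntl), written 5′ to 3′ on the gene's strand with each match in capitals.
Per1: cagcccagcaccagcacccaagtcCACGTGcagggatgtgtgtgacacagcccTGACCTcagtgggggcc
Cry1: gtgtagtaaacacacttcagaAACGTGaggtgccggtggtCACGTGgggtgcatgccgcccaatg
Nr1d1: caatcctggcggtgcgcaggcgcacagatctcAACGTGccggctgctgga
Per3: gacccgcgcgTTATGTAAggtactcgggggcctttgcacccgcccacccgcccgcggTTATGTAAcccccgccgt
Nr1d2: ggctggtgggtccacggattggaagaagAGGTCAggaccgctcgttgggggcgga
Arntl: aggcagaaagtAGGTCAgggacggaggt

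Per1 and Cry1 held the canonical E-box, Cry1 and Nr1d1 the variant, and Per3 held 2 copies of the D-box. AGGTCA was present in Per1 on the opposite strand, in Nr1d2, and in Arntl, where it fell in an exon just after the start. Clock also held AGGTCA in 1 of its 3 windows. The windows of Dbp and Rora held none of these letters, and no window was given for Per2. These matches describe the sequence and do not show binding.

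Astrocyte markers were high in every library. The summed level of 13 astrocyte markers was 14349 to 22313 TPM (a per-length level that the authors scaled to the same sum in every library), led by Aldoc, and the 10 neuronal markers summed to 39.1 to 128 TPM. The 8 oligodendrocyte markers, led by Mbp, ranged from 1297 to 17802 TPM across libraries, the 7 ependymal and choroid markers, led by Ccdc153 and Ttr, from 1636 to 8809, the 7 endothelial markers, led by Ly6c1, from 500 to 2747, the 4 mural markers, led by Vtn, from 381 to 988, and the 8 microglial markers from 104 to 160. In Cd38-/- replicate 3 the oligodendrocyte markers, at 17802 TPM, exceeded the astrocyte markers of the same library, at 16159 TPM. Th, Mog, Kl, Tmem119 and Cx3cr1 were listed at 0 in all Cd38+/+ libraries. The targeted gene, Cd38, was 125 TPM in Cd38+/+, 90.6 in Cd38+/- and 15.7 in Cd38-/- astrocytes on average. The Cd38+/+ libraries stood apart, with 13160 to 13516 genes above 0 against 15920 to 17906 in the others. Every comparison with Cd38+/+ rests on these 3 libraries and cannot be run without them, so genotype and this difference in detection cannot be told apart. Among the Cd38-/- libraries, replicates 5 and 6 had 17906 and 17535 genes above 0, against 15920 to 16406 in replicates 1 to 4. TPM keeps no read numbers, so the depth of each library is unknown. In bulk samples, fewer cells of a type and less RNA per cell cannot be told apart.

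The key genes lie in GRCm38 at chr7:113207465-113314126 (+) for Arntl (ENSMUSG00000055116), chr7:45705088-45710203 (+) for Dbp (ENSMUSG00000059824), chr14:18204054-18239127 (-) for Nr1d2 (ENSMUSG00000021775) and chr9:68653786-69388246 (+) for Rora (ENSMUSG00000032238), by GENCODE annotation. The 10 genes covered a wide range of level. In Cd38+/+ astrocytes, Nr1d1 averaged 298 TPM ± 39.5 (SD, n = 3) and Dbp 292 ± 109, and the ranges of these 2 overlapped. Rora followed at 108 TPM ± 14.4, below both without overlap. Nr1d2, Per3 and Cry1 lay at 47.99, 38.6 and 37.6 TPM, where neighbours in this order overlapped, and Arntl at 28.1 TPM lay below Cry1 without overlap. Per2 (13.1 TPM), Clock (12.3) and Per1 (8.75) were the lowest and overlapped with each other. In Cd38-/- astrocytes Dbp at 334 TPM ± 65.8 (SD, n = 6) and Nr1d1 at 289 ± 76.3 again headed the order and overlapped, while Rora at 88.6 and Nr1d2 at 86.1 TPM no longer separated. In Cd38+/- astrocytes, Nr1d1 at 299 TPM ± 91.7 (SD, n = 3) and Dbp at 234 ± 47.9 came first, and Arntl at 40.5 TPM stood above Per3 and Cry1, with overlap.

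**Figure D1:**
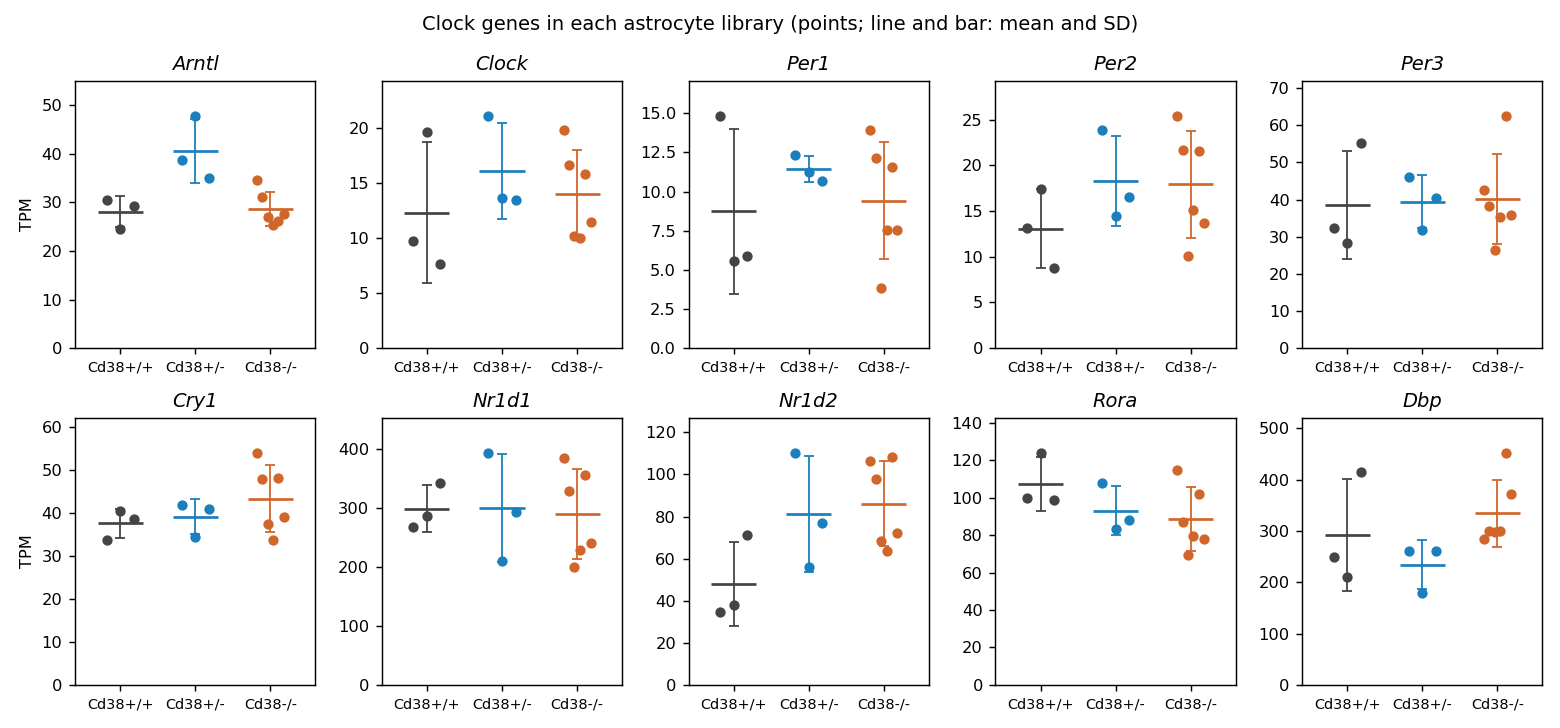
TPM (y axes, each from 0) of the 10 genes in each library of the 3 genotypes (x axes); points are libraries, horizontal lines means and bars the SD. Arntl is highest in the 3 Cd38+/- libraries (35.1 to 47.8 TPM), Dbp is higher in all 6 Cd38-/- than in all 3 Cd38+/- libraries, and the genotypes overlap for most other genes.

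Between Cd38-/- and Cd38+/- astrocytes, Arntl and Dbp separated in opposite directions, and no other gene among the 10 did. Arntl, the activator, read 38.66, 47.79 and 35.10 TPM in the Cd38+/- libraries, against a lowest of 25.39, a median of 27.3 and a highest of 34.52 in the 6 Cd38-/- libraries. All 6 Cd38-/- values lay below all 3 Cd38+/- values, although the closest pair differed by less than 1 TPM. On the log2(TPM + 1) scale the difference was -0.48 (SE 0.14, 95% interval -0.78 to -0.19), or 0.715-fold. The exact permutation test, two-sided, gave p = 0.0119, the smallest that 6 libraries against 3 allow, but in limma Arntl had an unadjusted p of 0.00425 and a Storey q of 0.187 over all genes and was not called a differentially expressed gene (DEG, a change of 1.2-fold or more with q below 0.05).

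Dbp, the output gene, read 261.60, 178.62 and 261.40 TPM in Cd38+/- libraries. In Cd38-/- libraries its lowest value was 285.23, its median 299 and its highest 452.82 TPM. Again the genotypes did not overlap, with every Cd38-/- library on the higher side. The difference was 0.51 on the log2(TPM + 1) scale (SE 0.17, 95% interval 0.14 to 0.88), or 1.43-fold, with exact permutation p = 0.0119, the smallest possible, and limma q = 0.231. Of 11563 genes tested, 5.73% did not overlap between these genotypes (2.88% lower and 2.85% higher in Cd38-/-), and 2 of the 10 clock genes did not. By the DEG rule 0 of the 10 were called against 0.0346% of all genes. With an unadjusted p under 0.05 in limma there were 2 clock genes, Arntl and Dbp, against 11.2% of all genes.

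Of the 2 separations, that of Dbp changed with library scaling. After median-ratio scaling Arntl still showed no overlap (difference -0.46, exact permutation p = 0.0119, where 6.92% of all genes showed none and 3.06% were lower). Dbp was then above all Cd38+/- libraries in 5 of 6 Cd38-/- libraries (difference 0.54, exact permutation p = 0.0476). Over the 23 alternatives, the limma q of Arntl ran from 0.0055 to 0.953 and that of Dbp from 0.00515 to 1.00, and neither changed direction. Without Cd38-/- replicate 3, the library with the most oligodendrocyte marker RNA, Arntl differed by -0.47 (q = 0.354) and Dbp by 0.54 (q = 0.370). Cd38+/- replicate 2 held the highest Arntl (47.79 TPM) and the lowest Dbp (178.62 TPM) of the 12 libraries. It also had the most oligodendrocyte marker RNA of its genotype (11025 TPM, against 3090 and 3824). The part of that RNA was not tested. Leaving this library out gave the smallest differences of any single leave-out, -0.36 for Arntl and 0.33 for Dbp. Both passed the DEG rule only with library quality weights (Arntl -0.32, q = 0.0055 and Dbp 0.40, q = 0.00515), a fit in which 3120 genes were called and whose weights did not converge. Exons of Dbp share 539 bases with Sphk2, on the opposite strand. The strand setting of the counting is not given in the sources used here, so reads in that stretch cannot be assigned to one gene or the other. Sphk2, looked up for this reason after values had been seen, differed by -0.31 (q = 0.337) between Cd38-/- and Cd38+/-, the opposite sign to Dbp. Markers moved with this comparison too. The summed astrocyte markers were 19573 to 22313 TPM in Cd38+/- and 15764 to 20221 TPM in Cd38-/- libraries. Of the 13, 12 were lower in Cd38-/-, and 1 separated the genotypes. An unadjusted limma p under 0.05 was found for 5 of the 13, all lower (11.2% of all genes in either direction). All 4 mural markers were lower, 1 had an unadjusted limma p under 0.05, and 1 separated the genotypes. Of the 7 ependymal and choroid markers 4 were higher and 3 lower, and 2, Ccdc153 and Tmem212, were higher in all Cd38-/- libraries. The 7 endothelial markers were higher by a median of 0.39, and none had an unadjusted limma p under 0.05 or separated the genotypes. Their part in the result was not tested.

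The ratio of Dbp to Arntl, 2 genes of opposite arms, put both measurements in 1 number within each library. In Cd38+/- astrocytes it was 6.77, 3.74 and 7.45. In Cd38-/- astrocytes it ran from 8.26 to 17.3, above every Cd38+/- library. In Cd38+/+ astrocytes it was 8.16, 8.59 and 14.2, inside or just below the Cd38-/- range and above all Cd38+/- libraries. This ratio was formed after the values of both genes had been seen and is given with no test. Its separation of Cd38-/- from Cd38+/- was fixed by the 2 separations of Arntl and Dbp in TPM, so it adds no support to them. A ratio within a library does not change with library scaling.

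**Figure D2:**
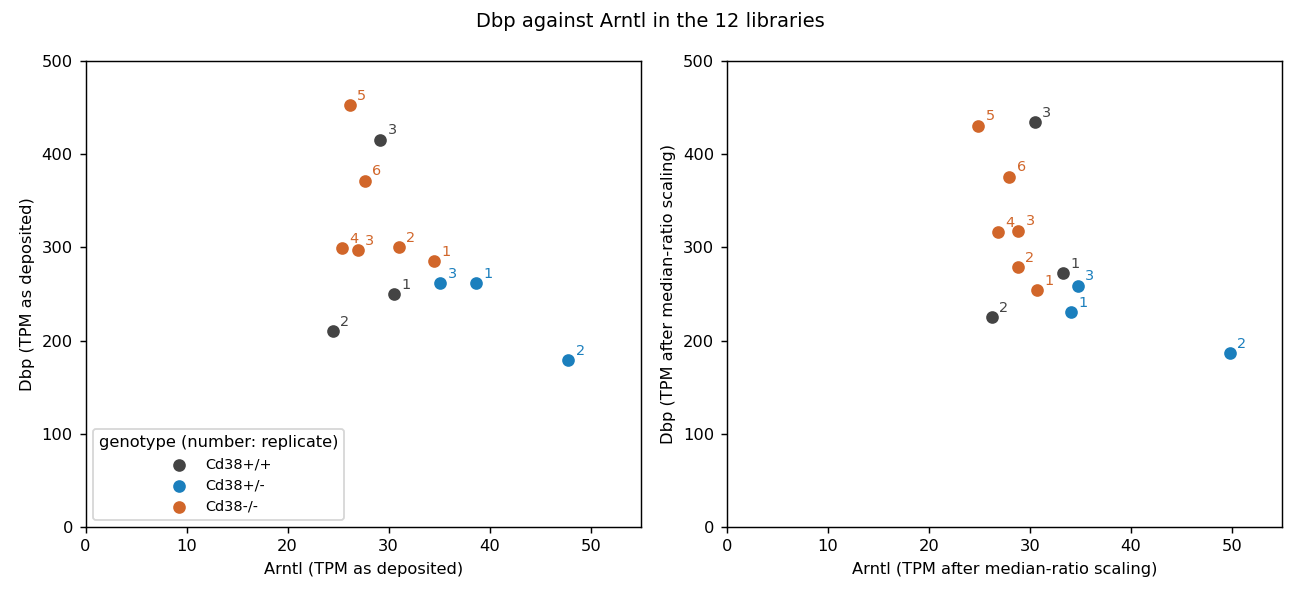
Dbp (y axis) against Arntl (x axis) in the 12 libraries, as TPM (left) and as median-ratio scaled TPM (right), coloured by genotype and numbered by replicate. The 3 Cd38+/- libraries lie at the lower right (ratio of Dbp to Arntl 3.74 to 7.45) and the 6 Cd38-/- libraries toward the upper left (8.26 to 17.3), with Cd38+/+ replicate 3 beside the latter.

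Against Cd38+/+, the 2 genes behaved otherwise. Arntl in Cd38+/+ was 30.58, 24.45 and 29.19 TPM, within the Cd38-/- range but for 1 library just below it, and the difference of Cd38-/- from Cd38+/+ was 0.03 (SE 0.18, 95% interval -0.37 to 0.42, limma q = 0.538), a sign that turned under both scalings. All 3 Cd38+/- values of Arntl lay above all 3 Cd38+/+ values (difference 0.51, SE 0.25, limma q = 0.254, exact permutation p = 0.1, the smallest for 3 against 3), and they still did after median-ratio scaling (0.37, as 10.9% of all genes did). Arntl was the 1 gene of 10 without overlap in that comparison, where 22.5% of 11763 genes had none and 15.5% were higher in Cd38+/-. Of the 13 astrocyte markers, 12 were higher and 1 lower in Cd38+/- than in Cd38+/+, with a median of 0.32. Without overlap, 7 of the 13 were higher. The part of these markers in the result was not tested. Dbp in Cd38+/+ was spread from 210.03 through 249.52 to 415.70 TPM. Its Cd38-/- libraries were 0.24 higher (SE 0.21, limma q = 0.293) and its Cd38+/- libraries 0.28 lower (difference -0.28, SE 0.27, q = 0.412), and neither was called. Without Cd38+/+ replicate 3, the highest, Dbp in Cd38-/- was 0.52 higher with q = 0.0329, and the Cd38+/- difference came to 0.0087. Over the 23 alternatives q for Dbp in Cd38-/- ran from 0.0329 to 0.700. The 3 comparisons share libraries, so they are not independent of each other.

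Nr1d2, which encodes the repressor REV-ERBβ, was the 1 DEG among the 10 genes between Cd38-/- and Cd38+/+ astrocytes, and it rose. Its Cd38+/+ libraries read 34.82, 38.07 and 71.07 TPM, and its Cd38-/- libraries ran from 63.72 through a median of 85.1 to 108.34 TPM. The difference was 0.87 on the log2(TPM + 1) scale (SE 0.25, 95% interval 0.33 to 1.42), or 1.83-fold, with limma q = 0.0421 and an exact permutation p of 0.0476. Cd38+/+ replicate 3 exceeded 2 Cd38-/- libraries, so 4 of 6 were above all controls and the genotypes overlapped. Of all 11722 genes tested 8.28% were DEGs, 6.42% as higher, so 1 in 10 clock genes was near the background. Of these DEGs 77.5% were higher, a share that was 59.3% after median-ratio scaling and 59.9% after quantile normalization. All 7 ependymal and choroid markers were also higher in Cd38-/- than in Cd38+/+ and 3 were DEGs. All 5 tested microglial markers (1 DEG) and all 4 mural markers (0 DEGs) were higher too. Of 13 astrocyte markers 9 were higher (1 DEG), and of 5 tested oligodendrocyte markers 4 were. Of 7 endothelial and 6 tested neuronal markers, 5 each were lower. The part of these markers in the result was not tested.

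The call for Nr1d2 was lost without any 1 of 7 of the 9 libraries. The q was 0.0738 and 0.0642 without Cd38+/+ replicates 1 and 2, and 0.0926, 0.0990, 0.0502, 0.0919 and 0.0717 without Cd38-/- replicates 1, 2, 3, 5 and 6. With the length and GC trend removed it was 0.0536, so the call was lost there too. It was 0.00457 without Cd38+/+ replicate 3 and 0.0425 without Cd38-/- replicate 4. The log2 difference stayed between 0.68 and 1.19 across the 23 alternatives, both scalings included, while q ran from 0.00457 to 0.383. Cd38+/- libraries, at 110.40, 55.77 and 76.79 TPM, were also higher than Cd38+/+ on average (0.76, SE 0.34, limma q = 0.235), with overlap, and they differed little from Cd38-/- (0.11 for Cd38-/- against Cd38+/-, 95% interval -0.39 to 0.61).

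Nr1d1, which encodes REV-ERBα, did not follow its paralogue. It read 266.53, 285.71 and 342.47 TPM in Cd38+/+, 393.39, 210.18 and 293.23 in Cd38+/-, and 199.25 to 383.77 with a median of 284 in Cd38-/-. The genotypes overlapped fully, and the differences were -0.03, -0.08 and -0.04 in the 3 comparisons, with 95% intervals that reached from -0.56 to 0.48 at the widest. Whether the 2 paralogues differed in response was not tested. Exons of Nr1d1 share 263 bases with Thra on the opposite strand. Thra, looked up after values had been seen, differed by 0.07 between Cd38-/- and Cd38+/+ (q = 0.485).

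Rora, the activating receptor at the same elements, was lower in both mutants but was not called here. The study, by a test it does not name, lists Rora among the DEGs common to both mutants. Its values were 99.76, 124.15 and 98.71 TPM in Cd38+/+, 107.89, 83.12 and 87.99 in Cd38+/-, and 69.25 to 115.07 with a median of 83.5 in Cd38-/-. The Cd38-/- difference from Cd38+/+ was -0.29 (SE 0.17, 95% interval -0.66 to 0.08, limma q = 0.185, exact permutation p = 0.155), and 2 Cd38-/- libraries, replicates 1 and 5, overlapped with the controls. After median-ratio scaling the levels were 108.73, 133.14 and 103.22 in Cd38+/+ and 74.12 to 102.36 in Cd38-/-, so all 6 Cd38-/- libraries lay below all 3 Cd38+/+ libraries (-0.41, exact permutation p = 0.0119, the smallest possible, limma q = 0.0703), as 12.4% of all genes did in either direction and 6.03% did as lower. Cd38+/- libraries were then also below all controls (-0.35, exact permutation p = 0.1, with 21.9% of all genes in either direction and 11% as lower). With the length and GC trend removed, Rora passed the DEG rule (-0.38, q = 0.0351), and over its 23 alternatives q ran from 0.0351 to 0.595 with the sign kept. Cd38-/- and Cd38+/- differed by -0.08 (95% interval -0.42 to 0.26).

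The core repressors and Clock showed no difference past the threshold. Per1, at 5.57 to 14.83 TPM in Cd38+/+, 10.68 to 12.35 in Cd38+/- and 3.82 to 13.91 in Cd38-/-, had wide intervals, from -0.80 to 1.05 for Cd38-/- against Cd38+/+ and from -0.61 to 1.55 for Cd38+/- against Cd38+/+. Per2 was 8.74 to 17.40 TPM in Cd38+/+, 14.50 to 23.86 in Cd38+/- and 10.08 to 25.42 in Cd38-/-. It was 0.47 and 0.41 higher in the mutants (limma q = 0.375 and 0.263), with overlap in both. Per3, the period gene with 2 D-box matches, ran from 28.21 to 55.24, 31.88 to 45.97 and 26.39 to 62.51 TPM in the same order, with differences of 0.08, 0.07 and, between the mutants, -0.0080. Cry1, which encodes the cryptochrome repressor, was 33.81 to 40.36, 34.47 to 41.97 and 33.60 to 54.06 TPM in the same order, and the Cd38-/- difference was 0.18 against Cd38+/+ and 0.13 against Cd38+/-. Clock, the partner of Arntl, was 7.68 to 19.64, 13.49 to 21.15 and 10.05 to 19.82 TPM. Clock was thus not separated between Cd38+/- and Cd38-/- (-0.20, 95% interval -0.72 to 0.32), where its partner was.

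**Figure D3:**
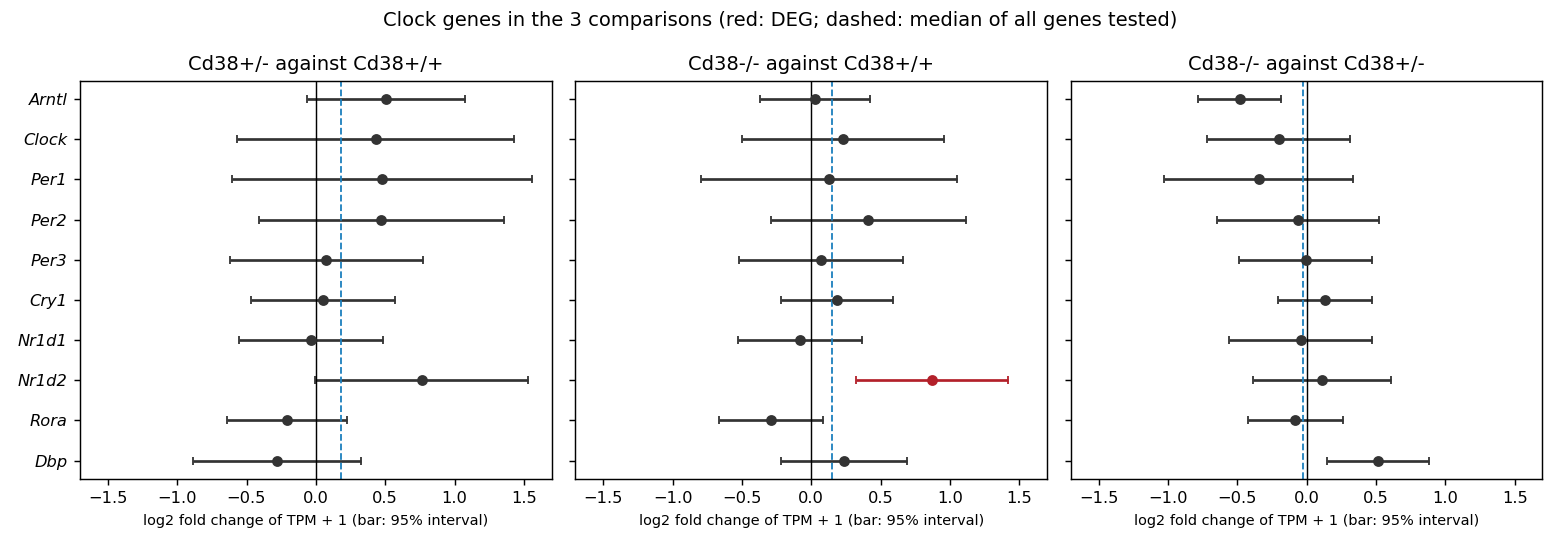
Differences in log2(TPM + 1) (x axes) of the 10 genes (y axis) in the 3 comparisons, with 95% intervals from limma; red marks a DEG and the dashed line the median of all genes tested. Nr1d2 is the 1 DEG (0.87 between Cd38-/- and Cd38+/+), and Arntl (-0.48) and Dbp (0.51) are the 2 genes whose interval leaves 0 between Cd38-/- and Cd38+/-.

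As a set the 10 genes followed the tilt of all genes. Between Cd38+/- and Cd38+/+, 7 were higher and 3 lower with a median of 0.25 (0.18 over all genes), 0 were DEGs (0% of all genes), and 0 had an unadjusted p under 0.05 in limma (13.5% of all genes). Between Cd38-/- and Cd38+/+, 8 were higher and 2 lower with a median of 0.16 (0.15 over all genes), and 0 were free of overlap (11.8% of all genes). Between Cd38-/- and Cd38+/-, 3 were higher and 7 lower with a median of -0.05 (-0.02 over all genes). Median-ratio scaling brought the all-gene medians to 0.04 and 0.03 in the comparisons with Cd38+/+ and those of the 10 genes to 0.12 and 0.04. Under it Cry1 in Cd38+/-, Per3 in all 3 comparisons and Arntl in Cd38-/- against Cd38+/+ changed sign.

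Within the Cd38-/- genotype, most of these genes rose and fell together from library to library. Replicates 1, 2 and 5 were the 3 highest of the 6 libraries for 8 of the 10 genes, namely Clock, Per1, Per2, Per3, Cry1, Nr1d1, Nr1d2 and Rora. The same 3 libraries have the highest median-ratio scale factors (1.05 to 1.12, against 0.934 to 0.989), and they were the 3 highest for 30.1% of 11368 genes. After scaling this held for 6 of the 10 genes and 13.7% of all genes. The same 3 libraries also had the least oligodendrocyte marker RNA of the 6 (3174 to 3828 TPM, against 8652 to 17802 TPM). The part of library scale or of oligodendrocyte RNA in this order was not tested. Arntl and Dbp did not share the order. Arntl was highest in replicate 1 and lowest in replicate 4, and Dbp was highest in replicate 5 and lowest in replicate 1.

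**Figure D4:**
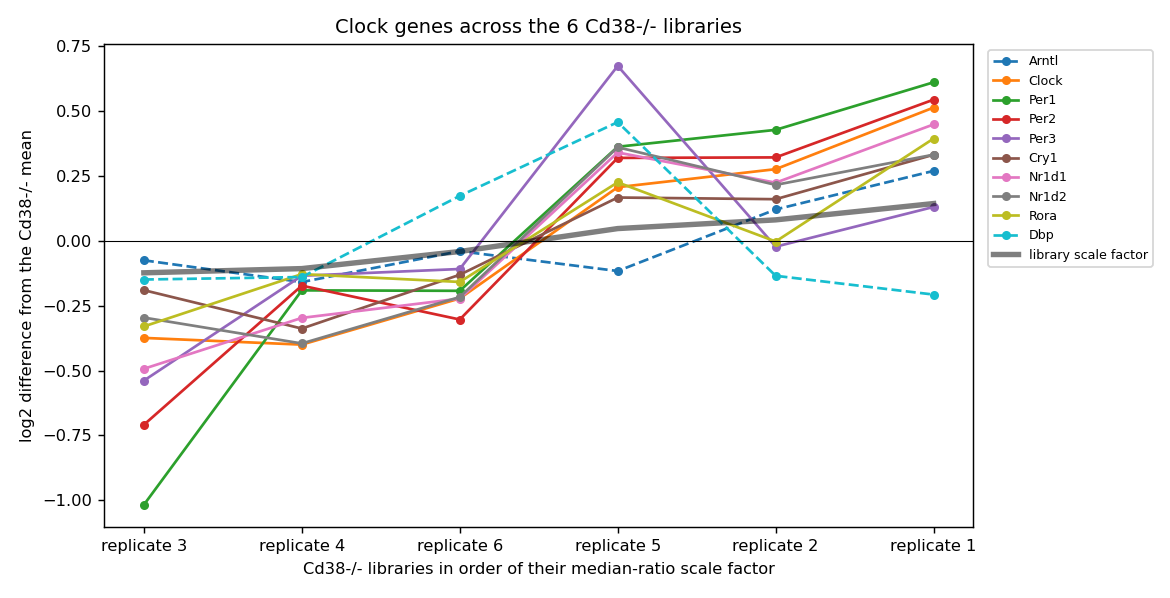
Difference of log2(TPM + 1) from the Cd38-/- mean (y axis) in the 6 Cd38-/- libraries, ordered by median-ratio scale factor (x axis), for the 10 genes and, as a thick line, for the log2 scale factor. Replicates 1, 2 and 5 are the 3 highest for 8 genes, while Arntl and Dbp (dashed) follow other orders.

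Across the 6 Cd38-/- libraries, Arntl and Dbp were not correlated past the threshold (Pearson's r = -0.46, exact permutation p = 0.374, Spearman's rho = -0.37, exact permutation p = 0.497, Benjamini-Hochberg adjusted 0.420 and 0.559 over the 9 relations of Arntl). Without replicates 1 and 2, the libraries farthest from the median of Arntl, r of these values was 0.15, so the relation in TPM as deposited rested on them. After median-ratio scaling r was -0.87 (exact permutation p = 0.025) and, without the same 2 libraries, a setting chosen after seeing the data, -0.73 (exact permutation p = 0.25), after quantile normalization -0.83 (exact permutation p = 0.0625) and with the length and GC trend removed -0.88 (exact permutation p = 0.0125). The p-values under these other settings were computed for Dbp alone and are not adjusted over the 9 relations. In TPM as deposited, the closest relation of Arntl was with Clock (r = 0.79, exact permutation p = 0.0528, adjusted 0.312), and without the same 2 libraries it was -0.01. No relation between clock genes was tested over all 12 libraries because the Cd38+/+ libraries stand apart.

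The genes most like Arntl, Dbp and Rora were found over the 12 libraries with genotype means removed, among 10661 genes, as a description. For Arntl they were Tmod2 (r = 0.85), Mfsd10 (0.83) and Clec3b (0.80). Dbp was most like Pms1 (0.92), Rars (0.91) and Sirt1 (0.90), and Rora most like Ganab (0.98), Nav2 (0.97) and Gsk3b (0.96). The 12 libraries, Cd38+/+ included, share scale differences. None of the other 9 clock genes was among these nearest genes.

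Of 21 further clock genes, 19 were tested and 0 were DEGs in each comparison. With an unadjusted limma p under 0.05 there was 1 (Fbxw11) between Cd38+/- and Cd38+/+ (13.5% of all genes). There were 3 (Fbxw11 and Csnk1e among them) between Cd38-/- and Cd38+/+ (23.6% of all genes). Between Cd38-/- and Cd38+/- there was 1 (Rorb, with 11.2% of all genes). The medians of the 19 were 0.17, 0.12 and -0.03, beside 0.18, 0.15 and -0.02 over all genes. Arntl2 and Fbxl21 were too low to test.

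Rorb, a paralogue of Rora, was the 1 of the 19 further clock genes that separated Cd38-/- from Cd38+/-, where 5.73% of all genes did. It read 50.12, 44.21 and 43.54 TPM in Cd38+/- and from 24.46 through a median of 34.0 to 41.92 TPM in Cd38-/-. The genotypes did not overlap (difference -0.43, SE 0.16, limma q = 0.272, exact permutation p = 0.0357). In Cd38+/+ Rorb spread from 22.10 to 62.95 TPM. Npas2, which can stand in for Clock beside BMAL1, was 13.79 to 17.43 TPM in Cd38+/- and 7.21 to 16.35 in Cd38-/- (difference -0.44, limma q = 0.362). Ciart, a repressor of the CLOCK and BMAL1 pair whose promoter window held 3 CACGTG matches, was 16.38 to 30.48 and 27.60 to 71.33 TPM (0.58, limma q = 0.349). Cry2 at 180 to 198 TPM on average, Bhlhe40, Tef and Hlf were expressed in all genotypes and overlapped between them in all 3 comparisons. Nfil3, Bhlhe41 and Timeless were less abundant, at genotype means of 4.65 to 16.1 TPM. Between Cd38+/- and Cd38+/+, 2 of the 19 further clock genes did not overlap, both higher in Cd38+/-, where 22.5% of all genes had no overlap and 15.5% were higher. They were Bhlhe41 (14.52 to 19.25 against 8.86 to 12.63 TPM, limma q = 0.306) and Fbxw11 (limma q = 0.204).

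Among genes that control the stability of clock proteins, Csnk1e, a kinase of the PER proteins, was 71.29 to 115.07 TPM in Cd38+/+, 62.24 to 75.13 in Cd38+/- and 57.70 to 72.32 in Cd38-/-. Its Cd38-/- difference from Cd38+/+ was -0.51 (SE 0.17, limma q = 0.0564), just outside the DEG rule. Fbxw11, a ligase adaptor that acts on phosphorylated PER, was 47.47 to 87.87 TPM in Cd38+/+, 98.33 to 127.55 in Cd38+/- and 82.11 to 127.54 in Cd38-/-. Its Cd38-/- difference from Cd38+/+ was 0.64 (SE 0.20, limma q = 0.0519). Between Cd38-/- and Cd38+/- these 2 differed by -0.01 and -0.06. Csnk1d, Csnk1a1, Gsk3b, Btrc and Usp2 were not called in any comparison. Between Cd38-/- and Cd38+/+, leaving out 1 library changed calls among the further clock genes. Without Cd38+/+ replicate 1, Fbxw11 and Btrc were DEGs (limma q = 0.0486 and 0.0489), and without Cd38+/+ replicate 2 Csnk1e was (q = 0.0104). Without Cd38+/+ replicate 3, Fbxw11, Rorb and Ciart were (q = 0.0109, 0.0280 and 0.0434), and without Cd38-/- replicate 4 Fbxw11 was (q = 0.0469).

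**Figure D5:**
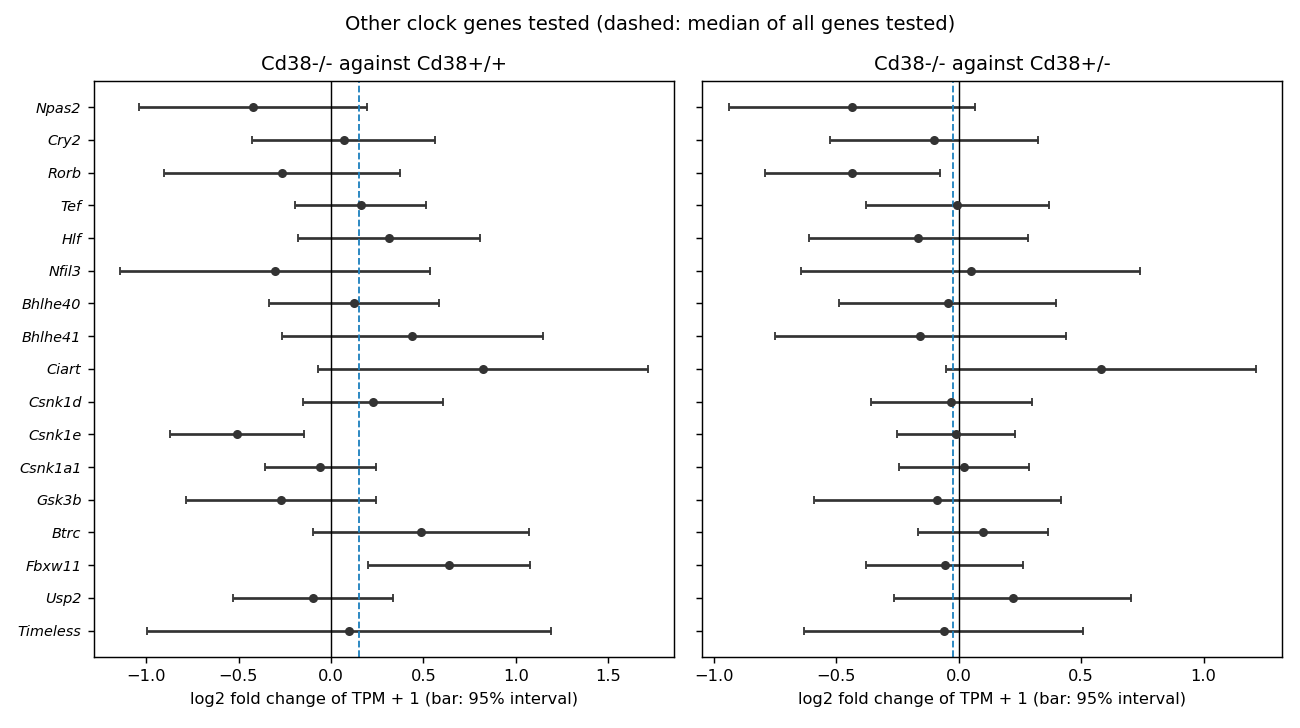
Differences in log2(TPM + 1) with 95% intervals (x axes) of further clock genes tested (y axis), for Cd38-/- against Cd38+/+ (left) and against Cd38+/- (right); the dashed line is the median of all genes tested. None is a DEG, and Rorb (-0.43) is the gene whose interval leaves 0 on the right.

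The genes that tie NAD to the clock were measured beside it. Nampt, the salvage enzyme whose own gene is under clock control, averaged 12.6, 14.4 and 14.6 TPM in Cd38+/+, Cd38+/- and Cd38-/- astrocytes. Sirt1, a deacetylase that acts on BMAL1 and PER2, averaged 10.5, 10.7 and 9.80 TPM, and Sirt6 6.61, 6.35 and 6.94 TPM. In Cd38+/+ libraries Sirt1 spread from 4.91 to 19.61 TPM and Sirt6 from 0.15 to 12.97 TPM, so these means do not show equal levels. Parp1 was 21.61 to 23.93 TPM in Cd38+/+ and 26.57 to 40.01 TPM in Cd38-/-, without overlap (difference 0.54, SE 0.20, limma q = 0.0738), and its Cd38+/- libraries, at 24.19 to 42.53 TPM, also lay above all Cd38+/+ libraries. Of all genes 11.8% and 22.5% were free of overlap in these comparisons. Of these 4 genes 0 were DEGs in any comparison, and 1, Parp1, had an unadjusted limma p under 0.05, between Cd38-/- and Cd38+/+ (23.6% of all genes).

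Signals that reset Per1 and Per2 were also read. Of 6 glucocorticoid-responsive genes 0 were DEGs in any comparison, and the most abundant were Tsc22d3 (677, 424 and 516 TPM in Cd38+/+, Cd38+/- and Cd38-/-) and Sgk1 (45.0, 42.7 and 35.5 TPM). Of 10 immediate early genes 8 were tested and 1, Junb, was a DEG, lower in Cd38-/- than in Cd38+/+ (difference -1.03, SE 0.24, limma q = 0.0249), where 8.28% of all genes were DEGs. Junb read 63.10 to 150.66 TPM in Cd38+/+, 32.92 to 55.97 in Cd38+/- and 38.90 to 58.66 in Cd38-/-, and the Cd38+/- difference from Cd38+/+ was -1.05 (q = 0.191). The study lists Junb too among the DEGs common to both mutants. The summed level of the 10 immediate early genes was 351 to 710 TPM in Cd38+/+, 230 to 437 in Cd38+/- and 321 to 555 in Cd38-/- libraries. Its part in the values of Per1 and Per2 was not tested.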

How the data were processed

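RNA of ACSA-2+ astrocytes was measured in 12 libraries. The study's methods describe removal of ribosomal RNA, while the labels give the molecule as polyA RNA. Per the labels, cDNA came from the SMART-Seq v4 low-input kit, and paired reads were trimmed (Trim Galore 0.6.4), aligned to mm10 (STAR 2.7.1a) and quantified (RSEM 1.2.28) by the authors. The submitters' processing notes also list DESeq2 1.36.0. The deposited unit is TPM with 2 decimals, 1 column per library, so depth is unknown and no counting interval is given.

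Fits of 1 pair of genotypes used limma 3.58.1 under R 4.3.3 (eBayes with a trend) on log2(TPM + 1), over genes whose mean TPM passed 5 in either genotype. Fold changes on this scale understate changes of low genes. The DEG rule (Storey q below 0.05, change of 1.2-fold or more) follows the study's methods, which name no test. The study reports DEGs in both mutants against Cd38+/+, while the limma fit on TPM called 0 in Cd38+/- against Cd38+/+. Single genes were compared by two-sided exact permutation tests (Python 3.11.15, scipy 1.17.1), which cannot go below p = 0.1 for 3 against 3 or 0.0119 for 6 against 3. Genotypes came from the labels, which give separate replicates but do not name the animals, so p-values measure the spread between these libraries. Gene positions and overlaps came from GENCODE vM21 on GRCm38. The fit was also run on simulated data, with independent normal noise of equal spread in both genotypes. Its outcome is not given here, and that setting does not cover the lower detection in Cd38+/+ libraries.

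The 10 genes and all lists were chosen with earlier results of these data known. The text names the 10 genes, further clock and NAD genes, Cd38, called (or else the 2 most abundant) glucocorticoid and immediate early genes, the leading gene of each marker list, and the 3 genes most like Arntl, Dbp and Rora. Alternatives were other pseudocounts, filters, adjustments, scalings, weights, a replicate block, length and GC correction (each library's trend removed and its mean kept), 1 fit of all 12 libraries, and leaving out each library. Some genes of these lists are not reported here by name; counts and sums over a list include them.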

Additional observations from a re-analysis of the deposited data

Results flagged for a closer look

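Arntl differed between the mutant genotypes, with all 6 Cd38-/- libraries below all 3 Cd38+/- libraries (exact permutation p = 0.0119, the smallest possible, limma q = 0.187). Relative to Cd38+/+, Arntl was 0.51 higher in Cd38+/- and 0.03 higher in Cd38-/- on the log2(TPM + 1) scale, the latter turning sign under both scalings. Dbp differed in the other direction, with all 6 Cd38-/- libraries above all 3 Cd38+/- libraries (exact permutation p = 0.0119, limma q = 0.231), and the difference was 0.28 below Cd38+/+ (-0.28) in Cd38+/- and 0.24 above it in Cd38-/-. For both genes these are tests of the mutants against each other, which is the difference of their effects against the shared controls. Of all genes tested, 5.73% separated these genotypes without overlap.

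A search for single outlying libraries covered the 10 genes in the 6 Cd38-/- libraries, the 1 genotype large enough, and none stood out, where chance gives about 1 in 20.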

How the results depend on the processing

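No call changed direction. Of 660 single-gene values under alternatives, 581 kept direction and side of the threshold, 14 lost the call (all Nr1d2, Cd38-/- against Cd38+/+), 4 gained one and 61 changed sign, none of them a called value.

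Between Cd38-/- and Cd38+/+, 1 of the 10 genes was a DEG, and 0 were with Benjamini-Hochberg adjustment, a log2 fold change of at least 1.2, eBayes without a trend, library quality weights, the replicate block, or the block with the length and GC trend removed. With the length and GC trend removed alone the count was 1, but Rora in place of Nr1d2. Leaving out 1 library gave 0 to 2. Over all genes the count was 970, and it was 326, 337, 845, 1, 2 and 1 under those settings, 2283 with no filter, 1822 with all 12 libraries, and 74 to 3119 without 1 library (lowest without Cd38-/- replicate 2, highest without Cd38+/+ replicate 3). Between Cd38-/- and Cd38+/- library quality weights gave 2 of the 10 genes (Arntl, Dbp) and 3 further clock genes (Npas2, Rorb, Ciart) among 3120 genes, against 4 genes as reported. Between Cd38+/- and Cd38+/+ the count over all genes was 0, with 1586 at an unadjusted p under 0.05, and it was 663 with no filter, 1464 with all 12 libraries, 30 with weights, 9 without a trend and 4 with the block.

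Among further clock genes, all 12 libraries gave 1 (Fbxw11) for Cd38+/- against Cd38+/+. For Cd38-/- against Cd38+/+ there were 0, and there was 1 with a pseudocount of 5 (Fbxw11), 4 with no filter (Fbxw11, Csnk1e, Fbxl21, Arntl2), 1 with median-ratio scaling (Csnk1e), 2 with quantile normalization and 2 with all 12 libraries (both Fbxw11 and Csnk1e), 1 with the length and GC trend removed (Csnk1e), and 0 to 4 without 1 library. The r of Arntl with Dbp was -0.46, and it was -0.87 with median-ratio scaling, -0.88 with the length and GC trend removed, 0.15 without the 2 farthest libraries and -0.69 to -0.28 without 1 library.

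Replicate numbers are shared between genotypes but nothing in the labels ties them to a litter or day. Deviations of same-numbered libraries from their genotype means correlated with r from -0.32 to 0.50. The highest was between replicate 1 of Cd38-/- and of Cd38+/-. With so few libraries these values cannot show whether same-numbered libraries share a litter or day. With the replicate block the Nr1d2 q was 0.325, and 0.366 with the length and GC trend removed too. Not every library matched its own number best.

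Signs changed as follows (log2 differences). For Cd38+/- against Cd38+/+, Per3 came to -0.063 (median-ratio), -0.0080 (quantile), -0.14 (length and GC), -0.14 (block with length and GC) and -0.11 to 0.36 without 1 library. Cry1 came to -0.085 (median-ratio), -0.033 (quantile), -0.017 (length and GC), -0.017 (block with length and GC) and -0.019 to 0.14 without 1 library. Nr1d1 came to 0.032 (quantile) and -0.26 to 0.20 without 1 library. Dbp came to -0.48 to 0.0087 without 1 library. For Cd38-/- against Cd38+/+, Arntl came to -0.017 (weights), -0.092 (median-ratio), -0.093 (quantile), -0.066 (length and GC) and -0.068 to 0.088 without 1 library. Clock came to -0.011 (quantile) and -0.029 to 0.60 without 1 library. Per1 came to -0.15 (quantile) and -0.093 to 0.54 without 1 library. Per3 came to -0.051 (median-ratio), -0.0082 (quantile), -0.075 (block), -0.038 (length and GC), -0.20 (block with length and GC) and -0.12 to 0.35 without 1 library. Nr1d1 came to 0.054 (block with length and GC) and -0.17 to 0.026 without 1 library. For Cd38-/- against Cd38+/-, Per2 came to 0.0083 (weights), 0.069 (length and GC), 0.11 (block with length and GC) and -0.21 to 0.13 without 1 library. Per3 came to 0.012 (median-ratio), 0.0022 (quantile), 0.10 (length and GC) and -0.15 to 0.11 without 1 library. Nr1d1 came to 0.017 (block), 0.0078 (length and GC), 0.081 (block with length and GC) and -0.27 to 0.18 without 1 library. Nr1d2 came to -0.13 to 0.36 without 1 library. Rora came to 0.019 (length and GC) and -0.16 to 0.030 without 1 library. The cause of these changes was not tested.

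TPM holds no read numbers, so the low genes (Per1, Clock, Per2) carry unknown counting error.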
